A study of Homo sapiens with 4 samples.

Results

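DHX36 PAR-CLIP in HEK293 cells, a human embryonic kidney line, gave at least 50 crosslinked reads on 4464 of 26490 genes of the FH-DHX36 table, and 387 of them had at least 50% of these reads in the 5'UTR. Both conditions were set on the FH-DHX36 values, so the FH-DHX36 reads of the 387 genes are a description of how they were chosen and carry no test. The genes chosen in this way made up 8.67% of all genes with at least 50 FH-DHX36 reads. The comparison made here was with the reads of the same genes in the PAR-CLIP of FH-DHX36-E335A, the DHX36 protein without helicase activity.

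Both cell lines were stable HEK293 lines in which a FLAG/HA-tagged protein was expressed from a tetracycline-inducible promoter, beside the DHX36 of the cell itself. The FH-DHX36 line carried isoform 2 per the sample labels, and the FH-DHX36-E335A line carried isoform 1 with the mutation, so that isoform and mutation differed together and their effects cannot be told apart. Both lines were induced with 500 ng/ml tetracycline for 15 h, labeled with 4-thiouridine (4SU), a photoreactive uridine, and irradiated at 365 nm for 5 min. There were 2 biological replicates per line and 4 samples in all, but the table holds 1 value per gene and line, and no spread between replicates could be computed from it. No value of other transcripts was used to check the identity of the cells.

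DHX36 is a DEAH-box helicase that binds and unwinds G-quadruplexes, stacked structures that guanine-rich RNA or DNA can fold into when several runs of G lie close together. The 5'UTR is the stretch of an mRNA that the small ribosomal subunit scans on its way from the cap to the start codon, and stable structures in it are known to lower initiation of translation. In PAR-CLIP, 4SU crosslinks to the bound protein under UV light, and sequencing then shows a C at positions where the genome has T. A crosslinked read here is a read inside a cluster, which is a group of overlapping reads with such conversions, and a gene with reads but no cluster is listed at 0.

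Guanine runs of the kind that DHX36 is known for were found in the annotated 5'UTRs of many of the genes. The sequences below are matches to a pattern of 4 runs of G with spacers of 1 to 7 bases in the 5'UTR of the canonical transcript (GRCh37, the build of the table, with GENCODE release 44), read on the sense strand. Stretches of at least as many G as a run needs are in capitals, and a G that serves as a spacer within a long stretch is in capitals too. The table gives no cluster positions, so no match was tied to a bound site. The genes were taken from those with the most FH-DHX36 5'UTR reads, the highest reads relative to RNA abundance, and the highest or lowest 5'UTR share in FH-DHX36-E335A, to show the range of G runs among them. With runs of at least 3 G, the shortest match was:
ATXN1L: GGGtgtGGGGcggctccGGGGccGGGG
PHLDA3: GGGtcGGGctGGGccagctGGGG
GIT1: GGGcaggcGGGcacggcGGGttccGGG
SAP30L: GGGccGGGGGccgaGGGagccGGG
CNTROB: GGGtagaacGGGtgaaGGGatGGGGG

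These matches lie at chr16:71879909-71879935 on the plus strand (ATXN1L), chr1:201438159-201438181 on the minus strand (PHLDA3), chr17:27916551-27916577 on the minus strand (GIT1), chr5:153825988-153826011 on the plus strand (SAP30L) and chr17:7835867-7835892 on the plus strand (CNTROB). All are exonic and in the 5'UTR. Between the match and the start codon lie 251 bases of mRNA in ATXN1L, 244 in PHLDA3, 154 in GIT1, 153 in SAP30L and 505 in CNTROB.

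Other genes with many 5'UTR reads had no match with runs of at least 3 G and had one with runs of at least 2 G, the shorter runs that can form quadruplexes of fewer layers:
DDIT4: GGccaaGGGGGaGG
PPM1B: GGcGGaGGaGG
UBE2S: GGGGGccGGGGGG
C6orf62: GGatGGattttaGGGattGG
AP1G2: GGGGGGcagaGGagcGGagttgaGG
MED13: GGaGGcGGcGG
YME1L1: GGcaGGcGGGtgaGG

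They lie at chr10:74033688-74033701 plus (DDIT4), chr2:44396176-44396186 plus (PPM1B), chr19:55918982-55918994 minus (UBE2S), chr6:24719297-24719316 minus (C6orf62), chr14:24036958-24036982 minus (AP1G2), chr17:60142617-60142627 minus (MED13) and chr10:27443160-27443174 minus (YME1L1). The match in AP1G2 ends 15 bases before the start codon of a 5'UTR of 58 nt, that in YME1L1 20 bases before it, that in UBE2S 24 bases before it, and that in MED13 50 bases before it. In AP1G2 and UBE2S nearly all FH-DHX36-E335A reads lay in the 5'UTR, and in MED13 and YME1L1 none did (below), so that genes at both ends of the comparison carried such matches.

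The 387 genes had from 51 to 7634 FH-DHX36 reads, with a median of 171. Of these reads, 26 to 4502 per gene lay in the 5'UTR, with a median of 142. The median 5'UTR share was 90.7%, and 165 genes had all of their FH-DHX36 reads there. Within the 5'UTR, most genes had a single cluster. The 5'UTR held 1 cluster in 288 genes, 2 in 78, 3 in 17 and 4 or more in 4 genes, and 133 genes had no other cluster anywhere. The other genes had more than 1 FH-DHX36 cluster, and all 387 together had 948. At the edge of the chosen share stood SPAG9 and ZFAND5 at 50% and TGFBR1 at 50.1%, and just outside it were TOX4 at 49.6% and NADK and NUP98 at 49.5%. At the edge of the read minimum stood ATP6V1C1, C16orf70 and FASTK with 51 reads each, all in the 5'UTR, and just outside it were HID1 and MPP5 with 49 and OSTM1 with 48, also all in the 5'UTR.

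Summed over all genes, 8752127 crosslinked reads were listed for FH-DHX36-E335A and 2160413 for FH-DHX36, and counts were therefore compared as shares, or after each count was divided by the total of its own PAR-CLIP (scaled reads). In FH-DHX36-E335A, 377 of the genes had at least 50 reads, 7 had 1 to 49, and 3 had no cluster. The 377 genes are those whose shares are compared below.

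The genes took nearly the same part of both PAR-CLIPs, but a larger part of their reads lay outside the 5'UTR in FH-DHX36-E335A. Their summed reads were 6.27% of all FH-DHX36 reads and 5.91% of all FH-DHX36-E335A reads. Of the FH-DHX36 reads on these genes, 81.4% lay in the 5'UTR, 4.47% in the CDS, 10.0% in the 3'UTR, 1.93% in introns and 2.19% in none of these 4 categories, here called other annotation. Of the FH-DHX36-E335A reads, 26.6% lay in the 5'UTR, 15.0% in the CDS, 34.4% in the 3'UTR, 3.44% in introns and 20.6% in other annotation. The 3'UTR thus held more FH-DHX36-E335A reads of these genes than the 5'UTR did. The FH-DHX36 side of these values follows from how the genes were chosen. Over all genes of the table, the 3'UTR held 38.4% of FH-DHX36 reads and 53.3% of FH-DHX36-E335A reads, and other annotation 16.7% and 21.4%.

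**Figure D1:**
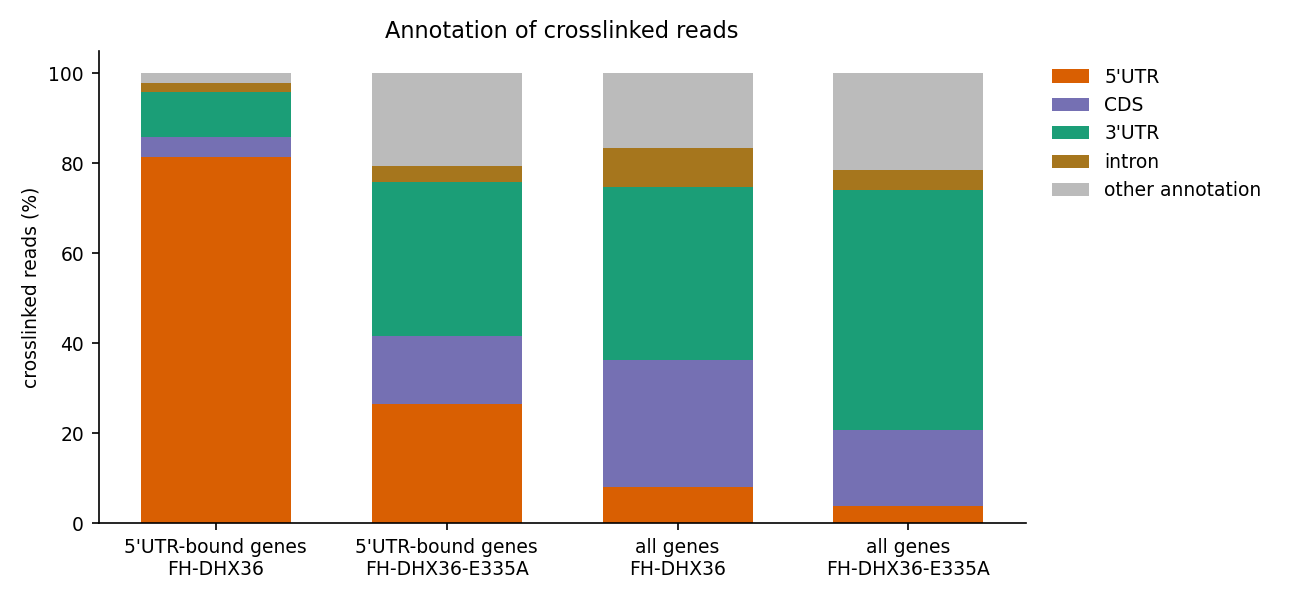
Stacked bars give the percent of crosslinked reads in the 5'UTR, CDS, 3'UTR, introns and other annotation, for the 387 genes chosen for 5'UTR reads and for all genes of the table, in FH-DHX36 and FH-DHX36-E335A. The 5'UTR part of the chosen genes was 81.4% in FH-DHX36 and 26.6% in FH-DHX36-E335A, and that of all genes was 7.97% and 3.86%.

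Over all genes, the 5'UTR held 7.97% of FH-DHX36 reads and 3.86% of FH-DHX36-E335A reads. Genes outside the set had 3.06% and 2.44% of their reads there. The 5'UTR reads of the chosen genes were 5.10% of all FH-DHX36 reads and 1.57% of all FH-DHX36-E335A reads. Of all 5'UTR reads of the PAR-CLIP, the 387 genes held 64.0% in FH-DHX36 and 40.7% in FH-DHX36-E335A. The first of each of these pairs follows from how the genes were chosen. The number of 5'UTR clusters on the genes was similar, 520 in FH-DHX36 and 462 in FH-DHX36-E335A, whereas 3'UTR clusters were 194 and 1681, and CDS clusters 139 and 1097. A deeper PAR-CLIP can list more clusters, and the part of depth in these numbers was not tested.

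Per gene, the 5'UTR share in FH-DHX36-E335A had a median of 23.6% over the 377 genes, with quartiles of 5.64% and 53.0%. The median over all 4248 genes with at least 50 reads in both PAR-CLIPs was 0%. At least 50% of the FH-DHX36-E335A reads lay in the 5'UTR in 101 of the 377 genes, or 26.8% (95% Wilson interval 22.6% to 31.5%), against 2.85% of all genes with at least 50 reads in both PAR-CLIPs and 3.05% of all genes with at least 50 FH-DHX36-E335A reads. The interval treats the genes as independent draws and holds no spread between replicates. A further 81 genes had from 25% to under 50% in the 5'UTR, 111 had more than 0% and under 25%, and 84 had none. The share of the chosen genes in the 5'UTR therefore stood far above that of other genes in FH-DHX36-E335A as well, while 353 of the 377 had a lower share there than in FH-DHX36, 10 had an equal share and 14 a higher one. Since the genes were chosen for a high FH-DHX36 share, a lower share in another measurement is favored by the choice, and how much of the difference it makes up was not tested.

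**Figure D2:**
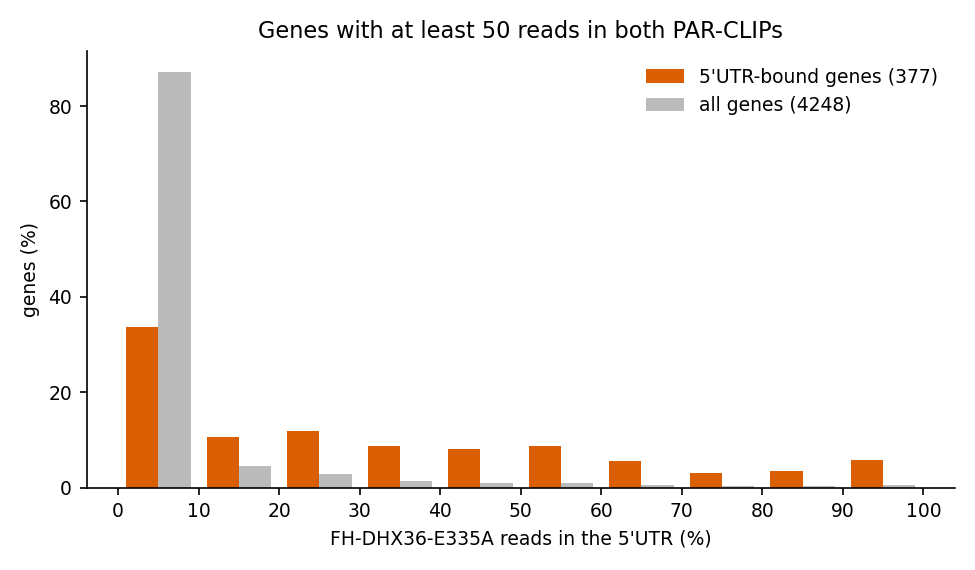
Percent of genes (vertical axis) by the percent of their FH-DHX36-E335A reads in the 5'UTR (horizontal axis, steps of 10 points), for the 377 chosen genes and all 4248 genes with at least 50 reads in both PAR-CLIPs. The chosen genes spread over the whole axis with a median of 23.6%, and the other bars stand almost wholly at the low end, with a median of 0%.

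The same conditions applied to FH-DHX36-E335A chose 241 genes without use of the FH-DHX36 values. Of these, 121 had at least 50 FH-DHX36 reads, 28 had 1 to 49 and 92 had none. Shares were compared in the 121 only, which is a condition on FH-DHX36 reads. A gene can meet it through its 5'UTR reads, which favors a high FH-DHX36 share, and the size of this effect was not tested. The FH-DHX36 5'UTR share of the 121 genes had a median of 94.2%, higher than the median of 67.3% that they had in FH-DHX36-E335A, on which they were chosen. In 101 of the 121, or 83.5% (95% Wilson interval 75.8% to 89.0%), at least 50% of the FH-DHX36 reads lay in the 5'UTR. The 101 genes that met the conditions in both were 26.1% of the genes chosen in FH-DHX36 and 41.9% of those chosen in FH-DHX36-E335A. From either side, the median FH-DHX36 share was thus the higher, in the second case only among genes with at least 50 FH-DHX36 reads.

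**Figure D3:**
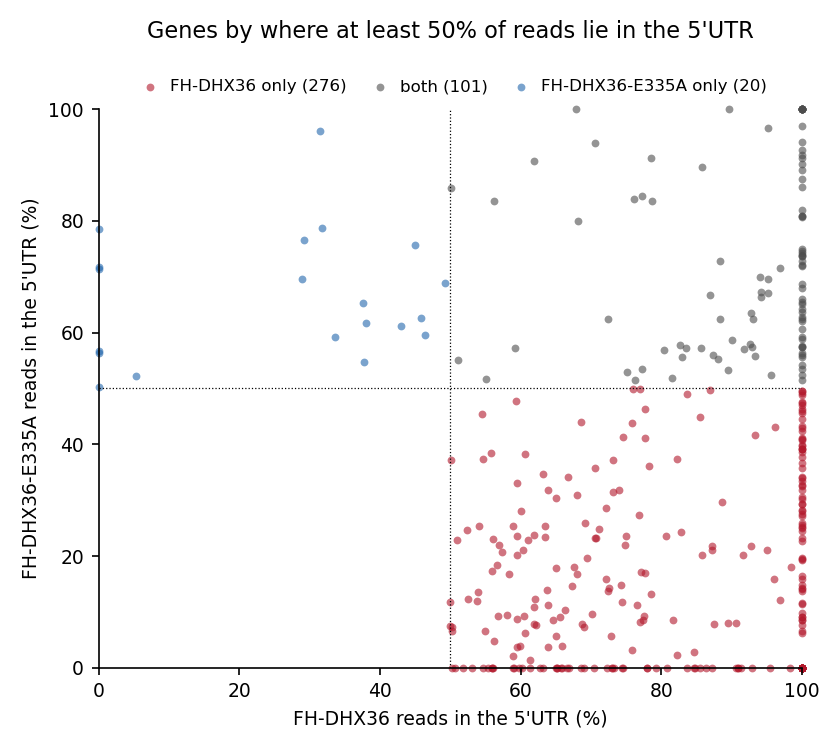
Each point is a gene with at least 50 reads in both PAR-CLIPs and at least 50% of them in the 5'UTR in either, placed by the percent of its reads in the 5'UTR in FH-DHX36 (horizontal axis) and FH-DHX36-E335A (vertical axis), and dotted lines mark 50%. In all, 276 genes were at 50% or more in FH-DHX36 alone, 101 in both and 20 in FH-DHX36-E335A alone.

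Genes that met the conditions in both were found at every depth. With 50 to under 100 FH-DHX36 reads, 22.6% of the genes had at least 50% of their FH-DHX36-E335A reads in the 5'UTR, with 100 to under 200 reads 25.8%, with 200 to under 500 reads 29.5%, and with 500 or more 30.4%. By the number of FH-DHX36 clusters, the share was 37.1% for genes with 1 cluster, 21.9% with 2, 31.0% with 3 and 11.8% with 4 or more. Among the genes with 100% of their FH-DHX36 reads in the 5'UTR, 156 had at least 50 FH-DHX36-E335A reads, with a median FH-DHX36-E335A 5'UTR share of 38.2%, and 55 of the 156 had at least 50% there.

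The 12 genes with the most FH-DHX36 5'UTR reads showed the range of outcomes. UBE2S, the ubiquitin-conjugating enzyme that extends chains for the anaphase-promoting complex, had 2373 of 2492 FH-DHX36 reads and 3356 of 3471 FH-DHX36-E335A reads in the 5'UTR, which are shares of 95.2% and 96.7%. It was the only one of the 12 whose share was not lower in FH-DHX36-E335A. Each protein left 1 cluster in its 5'UTR. FAM60A, a subunit of the SIN3 histone deacetylase complex (named SINHCAF in later annotation), had all 1525 FH-DHX36 reads in the 5'UTR, and 1072 of 1443 FH-DHX36-E335A reads, or 74.3%. PPM1B, a serine/threonine phosphatase, had 3243 of 3408 reads there in FH-DHX36 and 2530 of 3767 in FH-DHX36-E335A, which is 67.2%. In both genes the 5'UTR remained the region with the most reads.

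In 3 more of the 12, the 5'UTR held just over 50% of the FH-DHX36-E335A reads. RTN4, the reticulon that shapes tubules of the endoplasmic reticulum, had 1434 of 1642 reads in the 5'UTR in FH-DHX36 and 2497 of 4463 in FH-DHX36-E335A. PHLDA3, a p53 target that restrains AKT signaling, had 1864 of 2246 and 1900 of 3417. STX16, a SNARE of the trans-Golgi network, had 2005 of 2239 and 1258 of 2358. Its 3'UTR had 234 of the FH-DHX36 reads and 998 of the FH-DHX36-E335A reads, which are shares of 10.5% and 42.3%. After scaling to the total of each PAR-CLIP, its 3'UTR reads were nearly equal in both. Its scaled 5'UTR reads were lower in FH-DHX36-E335A, with a ratio of 0.155 over FH-DHX36. In each of these genes the reads outside the 5'UTR in FH-DHX36-E335A lay mainly in the 3'UTR or in other annotation.

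Next to these stood genes in which the categories other than the 5'UTR together held more than 50% of FH-DHX36-E335A reads. GIT1, a scaffold and GTPase-activating protein for ARF proteins, had all 1369 FH-DHX36 reads in its 5'UTR in 1 cluster, and in FH-DHX36-E335A 571 reads in the 5'UTR and 530 in the 3'UTR. STK11, the kinase LKB1 that activates AMPK, had 1609 of 2712 FH-DHX36 reads and 1163 of 2434 FH-DHX36-E335A reads in the 5'UTR. C6orf62 had all 1479 FH-DHX36 reads in 9 5'UTR clusters, and 2538 of 6495 FH-DHX36-E335A reads in 13 5'UTR clusters. These 3 genes had 49.6%, 47.8% and 39.1% of FH-DHX36-E335A reads in the 5'UTR. In GIT1 and STK11 the 5'UTR was still the single category with the most of these reads, and in C6orf62 it was other annotation, with 2851. DDIT4, an inhibitor of mTOR signaling that rises under stress, had the most 5'UTR reads of the 387 genes in both PAR-CLIPs. Its 5'UTR had 4502 of 7634 reads in FH-DHX36 and 5206 of 20527 in FH-DHX36-E335A, and its 3'UTR 3041 and 14716. ATXN1L, a relative of ataxin-1 that acts in transcriptional repression, had 3586 of 3864 reads in the 5'UTR in FH-DHX36 and 539 of 2469 in FH-DHX36-E335A, with 157 and 1699 in the 3'UTR. MED13, a subunit of the kinase module of Mediator, had 1904 of 2049 and 0 of 5642.

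**Figure D4:**
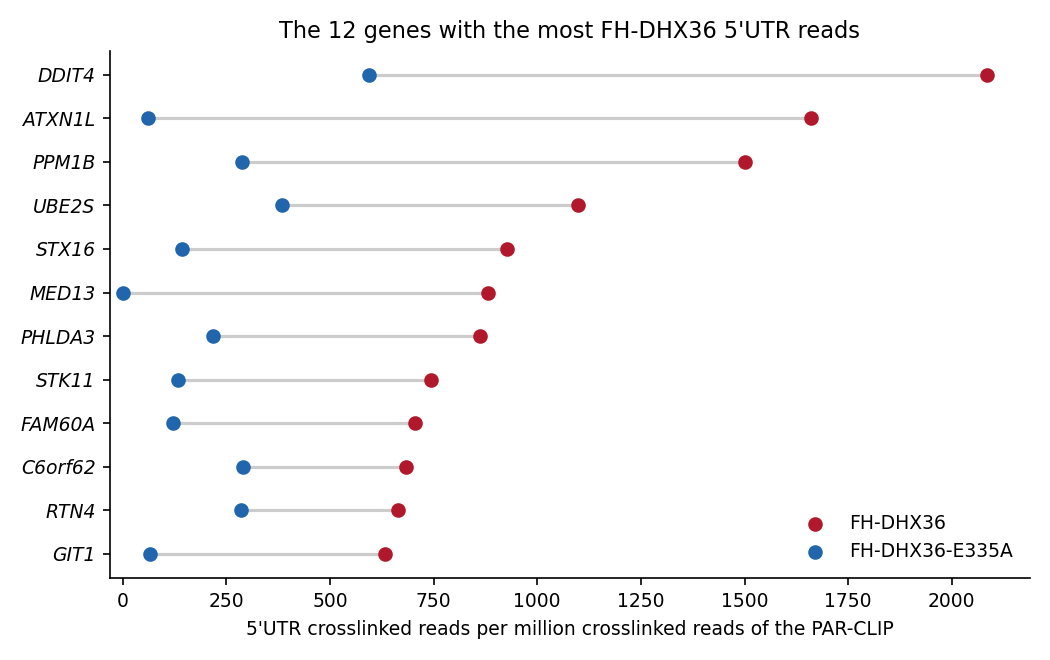
Points give the 5'UTR crosslinked reads per 1000000 reads of the PAR-CLIP (horizontal axis) for the 12 genes with the most FH-DHX36 5'UTR reads, with 1 value per gene and cell line and no error bar. All 12 had fewer in FH-DHX36-E335A, from 2084 against 594.8 for DDIT4 to 881.3 against 0 for MED13.

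The scaled 5'UTR reads of the genes had a median ratio of FH-DHX36-E335A over FH-DHX36 of 0.236. The 491 genes outside the set that had at least 25 FH-DHX36 5'UTR reads had a median ratio of 0.199 on the same scale. Both sets were chosen on FH-DHX36 5'UTR reads, which favors a low ratio in both. Chosen from the other side, the 134 genes with at least 50% of FH-DHX36-E335A reads in the 5'UTR and any FH-DHX36 5'UTR read had a median ratio of 0.480, with quartiles of 0.293 and 1.08. The ratio was at least 2-fold lower in 298 of the 387 genes, or 77.0%, against 74.1% of all genes with at least 25 such reads. It was at least 2-fold higher in 9, or 2.33%, against 3.19%. Without scaling to the total of the PAR-CLIP, the median ratio was 0.957, so that about as many 5'UTR reads were listed in both tables and the lower level rests on the larger total of FH-DHX36-E335A. Total scaled reads of the genes had a median ratio of 0.972, against 0.912 for all genes with at least 50 FH-DHX36 reads. For the 113 genes with FH-DHX36 3'UTR reads, the ratio of scaled 3'UTR reads had a median of 2.82. The choice of the genes keeps their FH-DHX36 3'UTR reads low, which favors a high ratio. Over all genes, the 3'UTR also held a larger part of the reads in FH-DHX36-E335A, 53.3% against 38.4%. Whether the ratio is particular to the chosen genes was not tested.

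The genes with the largest ratio of scaled 5'UTR reads were named after their values were seen. CKS1B, the small subunit that binds cyclin-dependent kinases, had 312 5'UTR reads in FH-DHX36 and 4073 in FH-DHX36-E335A, a ratio of 3.22 after scaling. GPBP1, which binds GC-rich promoters, had 242 and 3117, a ratio of 3.18. YY2, a zinc finger relative of YY1, had 117 and 1465, a ratio of 3.09. These were single 5'UTR clusters in both PAR-CLIPs. SLC39A8, an importer of zinc and manganese, had 137 and 1388 5'UTR reads, and its share was 50.2% in FH-DHX36 and 85.9% in FH-DHX36-E335A. DHX15, a DEAH-box helicase that takes spliceosomes apart, had 251 and 2427. The other 4 genes at least 2-fold higher were C19orf12, ATP6V1C1, BRIP1 and CMC2. Among the 14 genes with a higher share in FH-DHX36-E335A were UBE2S, MED23, CKS1B, CTXN1, CNTROB, PHACTR4, SLC39A8, POMT1, RNF13, SMO, STPG1, FAM120B and UBE4B.

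Relative to RNA abundance, the authors' NXPM value, the order of the genes differed. ATXN1L, one of the 12 above, had a 5'UTR NXPM of 26980 in FH-DHX36, and DDHD1 had 8991. Their RNA abundance, recovered from the NXPM, was 0.771 and 0.587, under the limit of 1 set for the ranking. SESN3, a stress-induced sestrin, had a 5'UTR NXPM of 5213 in FH-DHX36, followed by PPM1B with 4472, SOCS4, a suppressor of cytokine signaling, with 3007, KLF5, a zinc finger transcription factor, with 2950, and SAP30L, a SIN3-associated protein, with 2791, among genes with a recovered RNA abundance of at least 1 on the scale of the authors' RNA-seq. The shares of these genes then diverged. SOCS4 kept 1201 of 2291 FH-DHX36-E335A reads in the 5'UTR (722 of 755 in FH-DHX36). KLF5 had 708 of 812 in FH-DHX36 and 289 of 1374 in FH-DHX36-E335A, SAP30L 623 of 726 and 432 of 2146, and SESN3 1266 of 1623 and 0 of 4011. In KLF5, SAP30L and SESN3 the 3'UTR held the most FH-DHX36-E335A reads, with 1033, 1182 and 2935. The recovered abundance of the 387 genes had a median of 6.31, below the 8.12 of all genes with at least 50 FH-DHX36 reads. The NXPM over the whole gene is on another scale than the 5'UTR NXPM. For the 387 genes it had a median of 13.2 in FH-DHX36 and 12.9 in FH-DHX36-E335A, against 11.6 and 9.31. The median abundance was thus lower than that of all such genes, and the median NXPM higher, by more in FH-DHX36-E335A.

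At one end, 12 genes had every FH-DHX36-E335A read in the 5'UTR, and the 6 of them with the most such reads are described here. CNTROB, a protein of centriole duplication, had 164 of 183 reads there in FH-DHX36 and 719 of 719 in FH-DHX36-E335A. ZNF202, a zinc finger repressor, had 367 of 367 and 499 of 499, and WDR53, a WD-repeat protein, 255 of 255 and 362 of 362. AP1G2, a gamma-adaptin, had 586 of 586 and 308 of 308, and RGL1, an exchange factor for Ral, 238 of 238 and 258 of 258. POMT1, a protein O-mannosyltransferase, had 125 of 184 and 265 of 265. ZNF202, WDR53, AP1G2 and RGL1 had 1 cluster in each PAR-CLIP, so that DHX36 with and without helicase activity was crosslinked to the 5'UTR of these mRNAs and to no other region that was listed.

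At the other end, 84 of the 377 genes had at least 50 FH-DHX36-E335A reads and none in the 5'UTR, or 22.3%. Among all genes with at least 25 FH-DHX36 5'UTR reads and at least 50 reads in both, 30.1% had none. The genes with the most reads were YME1L1, a protease of the inner mitochondrial membrane, with 970 of 1123 reads in the 5'UTR in FH-DHX36 and 0 of 8871 in FH-DHX36-E335A, and NCAPG, a condensin subunit, with 1263 of 1390 and 0 of 7120. MED13, given above, came next. H2AFZ, the histone variant H2A.Z, had 1069 of 1480 and 0 of 5269, and TFRC, the transferrin receptor, had 288 of 330 and 0 of 4773. Over the 84 genes, the number of FH-DHX36-E335A reads ran from 65 to 8871, with a median of 720.

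Summed over these 84 genes, 64245 of 114708 FH-DHX36-E335A reads, or 56.0%, carried other annotation. It was 6756 of 7120 reads in NCAPG, 6440 of 8871 in YME1L1, 4085 of 4773 in TFRC, 3562 of 5269 in H2AFZ and 2221 of 5642 in MED13. In SESN3 it was 765 of 4011. Over the 84 genes, the median share of other annotation was 39.1%, against 2.26% in the 293 genes that kept 5'UTR reads and 5.04% in all genes with at least 50 reads in both PAR-CLIPs. In 35 of the 84 it was at least 50%, which 14.7% of all those genes reached, and in 11 there was none. In FH-DHX36 the median share of other annotation of the 84 genes was 0%. The table does not divide other annotation further, so whether these reads lie at the border of the 5'UTR or elsewhere on the gene was not tested. Counting all of it as 5'UTR, as an upper limit, raised the genes with at least 50% in FH-DHX36-E335A from 101 to 172 and the median share from 23.6% to 46.0%. Leaving it out of the total gave 118 genes and 26.0%. The size of the difference between the cell lines therefore depends on what the other annotation holds.

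The 3'UTR had reads in 113 of the 387 genes in FH-DHX36, where the choice of the genes makes them scarce, and in 320 in FH-DHX36-E335A. Of 264 genes with no FH-DHX36 3'UTR read and at least 50 FH-DHX36-E335A reads, 207 (78.4%) had 3'UTR reads in FH-DHX36-E335A and 166 (62.9%) had at least 50 of them. Among all 1700 genes with at least 50 reads in both and no FH-DHX36 3'UTR read, the shares were 70.8% and 56.2%. Over all genes with at least 50 reads in both, those with a 3'UTR read were 60.0% in FH-DHX36 and 86.1% in FH-DHX36-E335A. The region with the most FH-DHX36-E335A reads was the 5'UTR in 135 genes, or 35.8% against 3.93% of all genes with at least 50 reads in both, and the 3'UTR in 133, or 35.3% against 54.4%. It was other annotation in 53 (14.1% against 18.0%), the CDS in 44 (11.7% against 18.7%) and introns in 12 (3.18% against 4.97%). USP1, the deubiquitinase of the Fanconi anemia pathway, was a gene of the CDS kind, with 99 of 553 reads in the CDS in FH-DHX36 and 3702 of 6536 in FH-DHX36-E335A. CCNA2, cyclin A2, was of the 3'UTR kind, with 109 of 272 and 2885 of 3364.

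By function, the genes were read against lists of gene families, beside the 8.67% of all genes. Zinc finger genes named ZNF, ZBTB, ZSCAN or KLF gave 18 of the 165 with at least 50 FH-DHX36 reads, or 10.9%, and 4 of the 16 with enough FH-DHX36-E335A reads met the conditions there too (ZNF202, ZNF549, ZNF709 and ZBTB5). The ubiquitin system gave 12 of 107, or 11.2%, among them UBE2S, USP1, UBE2D2, RNF13 and FBXO5. Membrane traffic and small GTPases gave 11 of 118, or 9.32% (among them STX16, STX7, STX10, SNX5, RAB6A, RAB3GAP2, RAB11FIP2, RAP2A and VPS37C), and protein kinases and phosphatases 8 of 89, or 8.99% (STK11, CDK12, DUSP5, PPP2CB, PPP4R2, PPP6R1, PPP1R12A and PPP1R13B). These shares of the listed genes lay near that of all genes, and they do not stand for the whole families.

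Lists of the translation and energy machinery were read in the same way. Cytosolic ribosomal proteins gave 4 of 56, or 7.14%, and these were RPL26, RPL9, RPL13 and RPS27L. Translation initiation and elongation factors gave 1 of 36, or 2.78%, which was EEF1B2. Mitochondrial ribosomal proteins also gave 1 of 36, MRPS33, and the respiratory chain 3 of 42, or 7.14%, which were COX15, COX20 and NDUFA4. RPL26 had all 97 FH-DHX36 reads in the 5'UTR and 400 of 582 FH-DHX36-E335A reads, whereas RPL9 had 144 of 178 and 0 of 643, and RPS27L, a p53-induced relative of RPS27, 353 of 353 and 0 of 2113. Of these FH-DHX36-E335A reads, all 643 in RPL9 and 2001 in RPS27L carried other annotation, whose place on the gene is not known. Ribosomal proteins, EEF1B2 and H2AFZ have near-identical copies in the genome, and their counts are uncertain where reads could map to a copy.

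The list of RNA helicases and RNA-binding splicing factors gave 2 of 97, or 2.06%, the lowest share among the lists with any gene. It is partial, and AQR, SYNCRIP and LUC7L3, which are among the 387 genes, are not on it. The 2 listed genes were DHX15 and SRSF3, the latter with 709 of 772 FH-DHX36 reads and 3151 of 5517 FH-DHX36-E335A reads in the 5'UTR. Both met the conditions in both PAR-CLIPs. Solute carriers gave 3 of 58, SLC39A8, SLC25A30 and SLC41A1, and all 3 met them in both. Cyclins, replication and mitosis gave 4 of 62, KIF18B, CDC16, SMC4 and CCNA2, and homeobox, forkhead and related factors 2 of 49. The list of cyclins, replication and mitosis is partial too, and NCAPG and CKS1B, described above, are not on it. Of 19 genes published for a 5'UTR quadruplex, 8 had at least 50 FH-DHX36 reads, and none was among the 387. With 1 value per gene and line these are counts, and no list was tested.

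The annotated 5'UTRs of the genes were long and rich in G runs. A transcript was found for 383 of the 387 genes and for 4443 of the 4464 genes with at least 50 FH-DHX36 reads. The 5'UTR of the chosen genes had a median of 219 nt and a G content of 38.5%, against 142 nt and 35.6% in all 4443. A match with runs of at least 3 G was present in 77, or 20.1%, against 9.77% of the 4443, and with runs of at least 2 G in 352, or 91.9%, against 64.8%. An ATG upstream of the start codon was present in 50.4% against 39.0%, and more than 1 exon in the 5'UTR in 41.5% against 34.7%. The T content, which sets where 4SU can crosslink, was 16.7% against 15.9%. The 489 genes outside the set with at least 25 FH-DHX36 5'UTR reads and a transcript had a median of 231 nt and matches in 16.8% and 86.3%, values that lie nearer to those of the chosen genes than to those of all 4443.

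A long 5'UTR offers more room both for clusters and for G runs. Within steps of 5'UTR length, matches with runs of at least 2 G were present in 66.1% of the chosen genes and 33.5% of other genes with at least 50 FH-DHX36 reads under 100 nt, in 93.6% and 69.8% from 100 to under 200 nt, in 96.6% and 83.8% from 200 to under 300 nt, in 98.6% and 90.5% from 300 to under 500 nt, and in 100% and 96.2% at 500 nt or more. For runs of at least 3 G the shares were 3.39% and 1.21%, 14.5% and 6.78%, 20.5% and 12.3%, 32.4% and 19.9%, and 32.7% and 31.1% in the same steps. The chosen genes stood above the others in each step, by little in the longest 5'UTRs. Some steps hold few matches. For runs of at least 3 G, they were 2 of 59 chosen genes and 19 of 1572 others under 100 nt. At 500 nt or more they were 18 of 55 and 90 of 289. Lengths can still differ within a step.

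**Figure D5:**
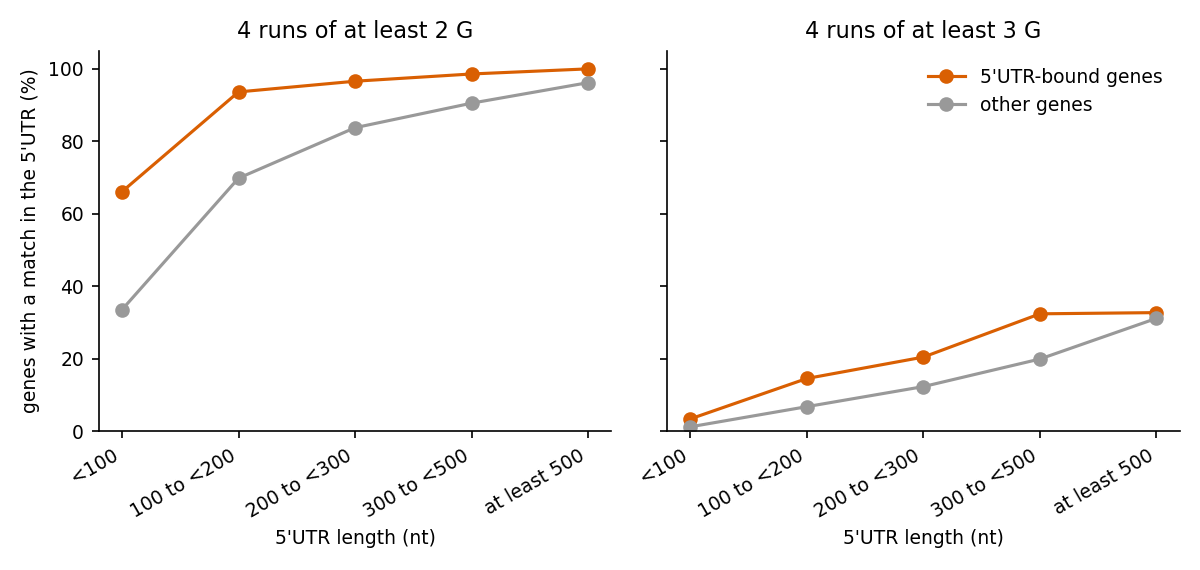
Percent of genes with a G-run match in the canonical 5'UTR (vertical axis) by 5'UTR length in nt (horizontal axis), for runs of at least 2 G (left) and 3 G (right), in the chosen genes and in other genes with at least 50 FH-DHX36 reads. For runs of at least 2 G under 100 nt, the values were 66.1% and 33.5%.

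The 5'UTRs of genes at both ends of the comparison differed in length and in exons. The genes with at least 50% of reads in the 5'UTR in both PAR-CLIPs had a median of 186.5 nt, and those with no FH-DHX36-E335A 5'UTR reads 149 nt. Matches with runs of at least 3 G were present in 22.0% and 14.6%, and with runs of at least 2 G in 97.0% and 93.9%. A 5'UTR of more than 1 exon was present in 51.0% of the first and 25.6% of the second, against 34.7% of all genes with at least 50 FH-DHX36 reads. Their G content had medians of 37.9% and 40.7%.

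The 101 genes with at least 50% of reads in the 5'UTR in both PAR-CLIPs included, from the highest FH-DHX36-E335A share down, AP1G2, ZNF202, WDR53, RGL1, WDR54, CNTROB, CRELD2, POMT1, RELL2, DNM3, TCTE3, SENP8, DDHD1, UBE2S, NBPF3, RNF13, ZDHHC13, ATP6V1C1, CKS1B, NCOA5, UBE4B, SMAD6, MED23, VDAC2, TAX1BP1, YY2, SLC39A8, SMO, STPG1, FAM120B, CTXN1, BAMBI, MEN1, ST20, CSTF3 and PHACTR4, which had at least 75%. They went on with CEP68, ZNF549, FAM60A, GOLPH3L, DUSP5, NSMCE2, RNF103, ABHD12, ZNF709, TFCP2, FAM222B, PIP5K1A, MAML3, RPL26, UNC50, TMEM50A, PPM1B, NHLRC2, IMPA2, SLC25A30, LRRC1, MKKS, CMC2, BAZ1A, PNMA2, BUB1B, CTNNBL1, KLC2, WBP4, GGPS1, PKP4, EEF1B2, PIK3R2, RND3, ADAM22, CACYBP, LONRF3, SLC41A1, THAP7, PLCB3, PACSIN2, TRAPPC11, BRIP1, SRSF3, DHX15, HEATR5B, TMEM19, RTN4, MLLT1, ZBTB5, PHLDA3, TCF12, KCTD9, STX7, EED, STX16, FRMD8, DTNBP1, SOCS4, SFT2D1, PAN2, PTPN13 and MAPRE1. Among them, MEN1, the tumor suppressor menin, had all 70 FH-DHX36 reads and 357 of 441 FH-DHX36-E335A reads in the 5'UTR, and SMO, the transducer of Hedgehog signaling, 92 of 119 and 146 of 173.

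The 81 genes with 25% to under 50% of FH-DHX36-E335A reads in the 5'UTR included IPO8, AKIRIN2, IGBP1, GIT1, RPAP3, RRNAD1, CPSF2, MLLT10, STK11, VCPIP1, TAF7, ZBTB48, POLN, OXSR1, PPP1R13B, ASCC2, GPBP1, SENP6, AFTPH, RAB6A, DGKZ, ABHD13, MID2, DCUN1D3, ZDHHC16, UVRAG, USP39, RIOK1, CAPN7, CDCA2, TNFRSF21, SIM1, CREM, ACAA2, C6orf62, TRIB3, PJA2, SSB, FAM24B, KBTBD2, C19orf12, TGFBR1, KIF18B, VPS37C, AQR, FBXO5, CSGALNACT2, MIS12, ZNF607, TWSG1, WDTC1, ZNF554, C7orf55-LUC7L2, COX20, ARID4A, FRA10AC1, MARVELD1, HES1, MGAT2, TMOD3, BRCA1, GADD45A, ZHX1, LARP4, WIPI2, HOMER1, SMC4, SAV1, UTP6, LLPH, ELF2, BRWD1, ZDHHC5, TTC3, SSH1, UBL3, ALDH3A2, DDIT4, SYNCRIP and ASUN. C7orf55-LUC7L2 overlaps C7orf55, which is listed on its own below, and the division of reads between them is uncertain.

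The 111 genes with more than 0% and under 25% included CTTNBP2NL, REL, XRCC2, PELI1, ZNF639, CDIPT, UGP2, PPP2CB, C12orf73, DESI1, USP1, PTP4A2, RC3H2, PPP6R1, GOLGB1, ITPKC, SESN1, ZNF461, N4BP1, ATXN1L, ZNF749, NAA15, KLF5, C9orf41, SLIT2, UBE2D2, FAM122A, SAP30L, CAPZA1, YY1AP1, SGOL1, TMTC2, TPBG, WDR47, FLVCR1, NR2F6, UBP1, EFCAB14, SPOPL, MYH10, NACA, TBL1XR1, NCKAP1, TOB1, PROSER1, ZNF263, SEPHS1, YIPF5, SMIM15, DSG2, NUDT9, KBTBD6, POP7, PPP4R2, SGTA, SETD7, ELAVL2, ID4, ZFAND5, PRDM4, REV3L, NUF2, CDK12, RRP1B, KIAA1671, DNAJA1, ZNF792, DCUN1D5, MAML1, YTHDF3, PPP1R12A, HCCS, LAMC1, RIC8A, SLK, RAB11FIP2, C18orf25, GMCL1, SIAH2, KPNA1, ADNP2, FAM208B, CTDNEP1, C9orf69, CNKSR3, SMAD2, RRAGD, SHOC2, SPAG9, CD2AP, AGPAT5, SENP2, CLPTM1L, NAB1, LUC7L3, IMPAD1, RPL13, RAP2A, CCNA2, HMGCS1, TMEM251, ADO, BMI1, CCDC47, DR1 and SERP1.

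The 84 genes with none included MED13, TAF1D, SESN3, NCAPG, H2AFZ, YME1L1, FLOT2, CEBPA, SUGT1, ARPC5, CLNS1A, SNX5, WDR62, RPS27L, SCAMP1, COX15, KIAA1919, RABEP1, TFRC, RRAGC, GPN3, CDC16, MAT2B, HIRA, CDR2, TMEM115, ERGIC2, SH3GLB2, PSMA5, C1orf35, PICALM, LSM1, RPL9, SAMD4A, MEA1, MZT2B, PAPOLA, ZSCAN18, BRMS1L, KPNA4, GTF2A2, RAB3GAP2, SKP2, TUSC3, CC2D1A, ZNF136, MRPS33, ZNF12, AP1AR, CAB39, USP12, SHMT1, WIPF2, MEGF9, BEX4, SRD5A3, TRMT5, C7orf55, NAA30, UBE2E2, APEX2, STX10, CRYZL1, NDUFA4, SAP130, CISD2, CREBL2, ACBD5, ZIK1, ASB6, TOM1L1, APOL2, DVL2, FASTK, INTS10, ROCK1, TBC1D14, ZC3H14, GNPTAB, PDP2, OSGIN2, RNF138 and ZDHHC20. The 10 genes with under 50 FH-DHX36-E335A reads were AHSA2, ABHD15, CTAGE5, FLYWCH1, GNG7, SMURF2 and C16orf70, with 1 to 49 reads, and CHMP6, ZNF25 and ZNF266, with no cluster. In FH-DHX36, CHMP6, a subunit of the ESCRT-III membrane-scission machinery, had 82 reads, all in the 5'UTR, ZNF25 had 93 of 140 there and ZNF266 all 55.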

How the data were processed

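PAR-CLIP was performed by the authors on 2 biological replicates of each HEK293 line. The submitters' processing notes name bcl2fastq 2.17.1. Reads were mapped to hg19 and clustered with PARalyzer inside PARpipe, and clusters were categorized with GENCODE v19. For PARalyzer, PARpipe and the aligner, the version is not given in the sources used here. Crosslinked read counts and cluster counts per gene and region were deposited by the authors without normalization. A further deposited value, NXPM, is a score of crosslinked reads scaled to the total and divided by RNA abundance. By its values, the 5'UTR NXPM is scaled to all 5'UTR reads of the PAR-CLIP in place of the total. The 30 columns hold 1 value per line, so no test was possible and no p-value was computed.

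Members were the genes with at least 50 FH-DHX36 reads and at least 50% of them in the 5'UTR. Other annotation is the total minus the 5'UTR, CDS, 3'UTR and intron. RNA abundance was recovered as scaled reads over NXPM minus 0.001. Intervals of shares are 95% Wilson intervals of genes or reads, which cover counting error only, since PCR copies are not independent molecules. Intervals over genes, also those of medians, treat the genes as independent draws. They hold no spread between replicates and measure no uncertainty of the experiment. 5'UTRs were taken from canonical transcripts of GENCODE release 44 on GRCh37, a later annotation than that of the authors. G runs were searched on the sense strand (4 runs, spacers of 1 to 7 bases). Older symbols were matched through RefSeq synonyms (GRCh38.p14, names only). The analysis used Python 3.11.15, pandas 2.3.3 and scipy 1.17.1. The rule that chose the genes, the Wilson intervals and the G-run search were tried on simulated shares or made sequences. The comparison of the cell lines was not tested in this way.

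Values are given for the 12 members with the most FH-DHX36 5'UTR reads, the 5 with the highest 5'UTR NXPM at an abundance of at least 1, 6 each of those with the highest (100%) and the lowest (0%) FH-DHX36-E335A 5'UTR share, ties being broken by the number of FH-DHX36-E335A reads, members without FH-DHX36-E335A clusters, genes next to each threshold and members of the gene lists. Members and lists were chosen with earlier results of these data known. Some members are counted but their names are not reported here.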

Additional observations from a re-analysis of the deposited data

How the results depend on the processing

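No paired analysis was possible because the columns carry no replicate values, and for the same reason no replicate could be left out. Of the alternatives, 21 left a count within 1.5 times or a median within its 95% interval, and 10 did not. The 21 include leaving out identifiers listed more than once, which could not change a value because no chosen gene was listed more than once. The number of chosen genes ranged from 258, with a minimum share of 75%, to 510, with a minimum of 20 reads. Counting clusters in place of reads left 39 genes with at least 50% of FH-DHX36-E335A clusters in the 5'UTR, in place of 101 by reads, and a median share of 14.3%; the 5'UTR clusters of these genes were fewer than their 3'UTR clusters and the cause was not tested. With other annotation counted as 5'UTR, an alternative added after seeing the data, the values were 172 genes and 46.0%. The ratio of 5'UTR reads had a median of 0.487 scaled to all 5'UTR reads, 0.957 without scaling, and 0.323 without genes that had no FH-DHX36-E335A 5'UTR read, the last also added after seeing the data. With the transcript of the longest 5'UTR, the median length was 370 nt and G content 34.4%. Runs of at least 2 G matched in 352 genes, in place of 77. The limits are the single value per line, the isoform that differs with the mutation, and the other annotation that the table does not divide.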

Other observations

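The genes of this paragraph were chosen after their values were seen. DDIT4 and STK11, both described above, had neighbors in the set with known parts in nutrient signaling. SESN1, a sestrin, had all 186 FH-DHX36 reads in the 5'UTR and 140 of 619 FH-DHX36-E335A reads. RRAGD, a Rag GTPase of the lysosome, had 110 of 110 and 54 of 703, and RRAGC, its relative, 273 of 544 and 0 of 1334. CAB39, a partner protein of STK11, had 79 of 79 and 0 of 1108. TRIB3, a pseudokinase induced by stress, had 229 of 229 and 133 of 345. The FH-DHX36-E335A share of the 5'UTR was lower in all 5, as in 93.6% of the 377 genes compared, an outcome that the choice of the genes favors. No list of such genes was set beforehand, and whether they are more frequent than other genes was not tested.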
